A study of Schmidtea mediterranea with 28 samples.

Results

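The 2 transcripts described here are the muscleblind genes *mbnl-1* (comp2838_c0_seq1) and *mbnl-like-1* (comp7489_c0_seq1) of the planarian *Schmidtea mediterranea*, followed through all 28 RNA-Seq libraries of the series. They were taken by identifier from 22944 assembled transcripts, with no threshold on a measured value. Both are targets of the study's *mbnl* RNAi, which mixed dsRNA against 4 muscleblind genes. Of the other targets of that mix *mbnl-like-3* is given for comparison and *mbnl-like-2* was not analysed here.

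Muscleblind (MBNL) proteins are zinc-finger RNA-binding proteins that steer alternative splicing, and depending on where they bind relative to an exon they promote its inclusion or its skipping. CELF proteins act on many of the same exons in the opposite direction, as known from vertebrate heart and muscle development. Planarians carry a large pool of adult stem cells, the neoblasts, from which all differentiated tissue is renewed, and the CELF-family gene *bruli* is needed for neoblasts to persist. The series asks which splicing factors set the splicing pattern of neoblasts apart from that of differentiated cells, so where the muscleblind transcripts lie and how far RNAi lowers them bears on every *mbnl* RNAi library.

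All animals were of the Berlin-1 strain, asexual, and recently raised from a single individual. Animals given RNAi were injected with dsRNA on 3 consecutive days at 1 µg/µl of each dsRNA, with GFP dsRNA for control RNAi. The paper states that, when appropriate, the GFP dsRNA of controls was matched to the highest concentration used in the other groups. Which of the control libraries this covers is not given. X1 and Xins cells were sorted 10 days after RNAi. The paper gives the same time for the RNA of whole worms of the RNAi groups. Wild type animals are labelled only as such. Cells were sorted by DNA content and cytoplasmic dye into X1 (neoblast-enriched), X2 (enriched in their progeny) and Xins (enriched in differentiated cells), all of which are mixtures. The sorted libraries comprise, after *mbnl* RNAi, 2 X1, 1 X2 and 2 Xins; the same numbers after *bruli* RNAi and after control RNAi; and 1 X1, 1 X2 and 2 Xins from wild type worms. Whole worms gave 1 library each for RNAi against the *mbnl* genes, *bruli*, the *celf*, *esrp*, *nova* and *ptbp* genes, *rbfox1* and the other *rbfox* genes, and 1 for control RNAi. The labels do not say whether replicates came from separate groups of animals, so p-values measure only the spread between libraries, which may be technical.

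The primers below were designed for dsRNA templates against these transcripts, and are shown because the depth of knockdown is the measurement most of the results turn on. They are written 5′ to 3′ in lower case. A second, independent *mbnl-1* template was also designed, and which of the pair went into the mix for the sequenced samples is not given in the sources used here.
mbnl-1 dsRNA, forward: tgctatagcgccatattctcaa
mbnl-1 dsRNA, reverse: gctgatcttgctggaattaggt
mbnl-1 second dsRNA, forward: acggaacccagatcaattacag
mbnl-1 second dsRNA, reverse: caccaggcaataaagtatgcaa
mbnl-like-1 dsRNA, forward: ttccacagcttctaacgatcaa
mbnl-like-1 dsRNA, reverse: ctattggaagccactgaaatcc

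The cloning primers mark the ends of each coding region, with the start codon and the reverse complement of the stop codon in capitals. No primer for a *mbnl-1* dsRNA template shared a run of more than 6 bases with a *mbnl-like-1* primer for its dsRNA template. Only the primers were compared, not the sequence between them, so whether the templates share longer runs was not tested.
mbnl-1 cloning, forward: ATGatatttccaaatacaccg
mbnl-1 cloning, reverse: TTAggttgagaatccgagtttctg
mbnl-like-1 cloning, forward: ATGttgccttttacatctacac
mbnl-like-1 cloning, reverse: TTAgctttttgatcggaacatg

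The libraries of whole worms held 12772545 to 16363499 counts each and those of sorted cells 15811388 to 34950244. Levels are given below as CPM, counts brought to a common library size (edgeR's cpm) after trimmed-mean (TMM) scaling of all 28 libraries to each other, or as cRPKM, the deposited length-corrected unit, where 2 genes are compared. Log2 differences and p-values come from edgeR's quasi-likelihood test on the counts with Benjamini-Hochberg adjustment across every transcript in the fit, and a transcript is called where its adjusted p is under 0.05. Each fit scales only its own libraries, so its log2 differences need not equal the ratio of the CPM means. Of 6 neoblast markers all were higher in X1 than in Xins (median log2 difference 4.01), and of 6 neural markers 5 were lower in X1 and 1 was higher (median −3.81), with the median of all transcripts at −0.15. The second Xins wild type library stands apart from its group, with 9.29 CPM of *celf-2*, a CELF-family gene of differentiated cells, against 23.3 to 40.7 CPM in the other 3 unperturbed Xins libraries (control RNAi and wild type), and results that rest on it are given without it as well.

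Per length, *mbnl-1* was the more abundant of the pair in all 28 libraries. In X1 without knockdown it lay at 17.1 to 18.5 cRPKM and *mbnl-like-1* at 7.53 to 8.99 cRPKM (n = 3). In Xins the ranges were 32.6 to 45.2 cRPKM for *mbnl-1* and 7.08 to 13.4 cRPKM for *mbnl-like-1* (n = 4), and in X2 they were 37.3 to 38.1 and 13.8 to 17.7 cRPKM (n = 2). The ranges of the members did not overlap in any fraction.

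Among the transcripts with counts in a library *mbnl-1* ranked high. It lay at the 76.7th to 79.1st percentile of cRPKM in X1, the 85.4th to 89.0th in X2 and the 83.1st to 86.8th in Xins. The rank of *mbnl-like-1* was lower in each, between the 67.3rd and 67.9th percentile in X1, the 74.5th and 76.4th in X2 and the 52.0th and 64.9th in Xins. The third muscleblind transcript in the tables, *mbnl-like-3*, was scarce, at 0.04 to 0.16 cRPKM in X1 (1 to 5 counts per library) and 0.92 to 1.81 cRPKM in Xins. Its share of the summed cRPKM of the 3 muscleblind transcripts was 0.16% to 0.59% in X1, 1.48% to 1.96% in X2 and 2.20% to 3.43% in Xins, so nearly all muscleblind cRPKM measured here came from the other 2.

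The transcript of *mbnl-1* was lowest in X1. The X1 libraries held 76.9 and 66.3 CPM (control RNAi) and 67.3 CPM (wild type), and the Xins libraries 95.6 and 81.9 CPM (control RNAi) and 80.9 and 112 CPM (wild type). All 3 X1 libraries lay below all 4 Xins libraries, with means of 70.2 ± 5.86 CPM in X1 and 92.6 ± 14.7 CPM in Xins (SD, n = 3 and 4). The log2 difference was −0.64 (standard error 0.18, adjusted p = 0.00863 by edgeR), where 81.3% of the 12665 transcripts tested were called and 43.3% were lower in X1.

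This call depended on scaling and on single libraries. With TMM factors over all 28 libraries, the scale of the CPM, the log2 difference was −0.41 (edgeR, adjusted p = 0.0535), where the median of all transcripts lay at 0.07 in place of −0.15. Leaving out the second X1 control library gave −0.53 (edgeR, adjusted p = 0.0574), leaving out the X1 wild type library gave −0.53 (0.0605), and without the second Xins wild type library it was −0.60 (0.0105). The direction was the same under every alternative run.

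In X2 *mbnl-1* stood at 142 CPM (control RNAi) and 100 CPM (wild type), above every X1 library and above 3 of the 4 Xins libraries. Against X1 the log2 difference was 0.82 (standard error 0.21, edgeR, adjusted p = 0.0113), where 46.7% of transcripts were called and 25.3% were higher in X2. Against Xins it was 0.18 (standard error 0.20, edgeR, adjusted p = 0.44) and was not called. The X1 call rests on the X2 control library, without which the log2 difference was 0.55 (edgeR, adjusted p = 0.110).

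**Figure D1:**
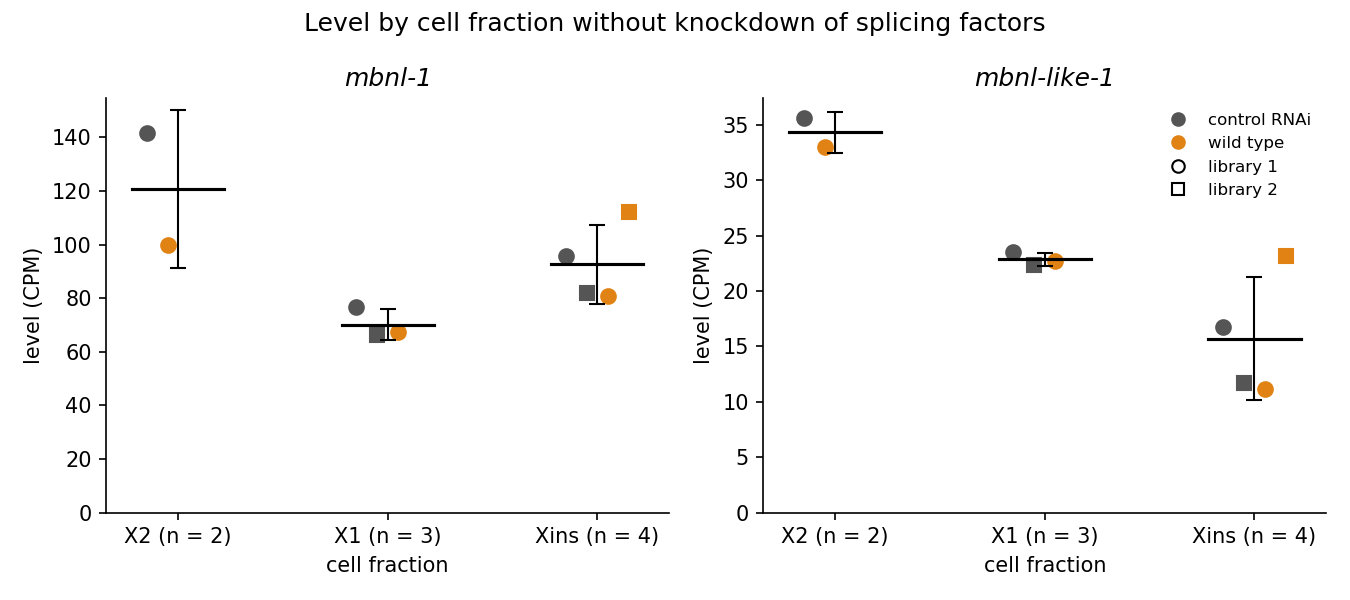
Level in CPM (vertical axis, from 0) of *mbnl-1* (left) and *mbnl-like-1* (right) in the X2, X1 and Xins fractions of control RNAi (grey) and wild type (orange) worms. Circles and squares are libraries numbered 1 and 2, horizontal lines are means and bars are SD (n = 2, 3 and 4); *mbnl-1* is lowest in X1 (66.3 to 76.9 CPM), and *mbnl-like-1* is highest in X2 (33.0 and 35.6 CPM).

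For *mbnl-like-1* no difference between X1 and Xins was called. The X1 libraries held 23.5 and 22.3 CPM (control RNAi) and 22.7 CPM (wild type), and the Xins libraries 16.8 and 11.7 CPM (control RNAi) and 11.2 and 23.2 CPM (wild type). The means were 22.9 ± 0.61 CPM in X1 and 15.7 ± 5.58 CPM in Xins (SD, n = 3 and 4), and the second wild type library alone carried the Xins range into that of X1. The log2 difference of X1 over Xins was 0.30 (standard error 0.26, edgeR, adjusted p = 0.30) and was not called, and leaving out 1 library at a time it ranged from 0.081 (without the first Xins wild type library, edgeR, adjusted p = 0.78) to 0.48 (without the second, 0.0520), with 0.11 without the second Xins control library.

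Here the size of the difference depended on the scaling, and a negative sign rested on the second Xins wild type library. That library held 13.41 cRPKM, against 7.08 to 8.23 in the other unperturbed Xins libraries and 7.53 to 8.99 in X1. The fit of cRPKM was not run without it. With limma on the deposited cRPKM the value was −0.06 (adjusted p = 0.84), where the median of all transcripts lay at −0.51, and after quantile normalization it was 0.97 and called (limma, adjusted p = 0.0150). With TMM factors over all 28 libraries it was 0.53 (edgeR, adjusted p = 0.0807).

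In X2 *mbnl-like-1* reached its highest unperturbed levels, at 35.6 CPM (control RNAi) and 33.0 CPM (wild type), above all X1 and all Xins libraries. Against Xins the log2 difference was 0.93 (standard error 0.29, edgeR, adjusted p = 0.0206), where 63% of transcripts were called and 29.3% were higher in X2. Against X1 it was 0.62 (standard error 0.31, edgeR, adjusted p = 0.13), not called. The call against Xins was lost without the X2 control library (0.89, edgeR, adjusted p = 0.0825), the second Xins control library (0.76, 0.0544) or the first Xins wild type library (0.74, 0.0526), but not without the second (1.13, 0.00296), and it was lost in a fit of control RNAi libraries with the replicate number as a block (1.09, 0.0629).

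By mean CPM the order of the unperturbed levels was X2, Xins, X1 for *mbnl-1*, where only X1 stood apart from a neighbour by the test. For *mbnl-like-1* it was X2, X1, Xins, where only the ends differed by the test. By mean cRPKM *mbnl-1* was level in X2 and Xins (37.7 and 37.6), and *mbnl-like-1* was lower in X1 (8.45) than in Xins (9.09). Both statements rest on the second Xins wild type library, at 45.15 cRPKM of *mbnl-1* and 13.41 cRPKM of *mbnl-like-1*. The other unperturbed Xins libraries lay at 32.59 to 37.15 and 7.08 to 8.23 cRPKM. By median cRPKM the orders were those of the CPM. The medians of *mbnl-1* were 37.68 in X2 and 36.375 in Xins, and those of *mbnl-like-1* 8.83 in X1 and 7.935 in Xins. In these bulk samples fewer cells that express a transcript and less of it per cell cannot be told apart. For comparison, the X1 over Xins log2 difference was 4.86 for *bruli* and −7.31 for *celf-2*, CELF-family genes of neoblasts and of differentiated cells, both called. Of the 13 other RNAi targets tested 4 were higher and 9 lower in X1 (median −1.90), and of 77 core spliceosome transcripts, the shared machinery on which splicing factors act, 76 were higher in X1 and 0 lower (median 2.02).

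The ratio of the members within a library is free of scaling between libraries. In X1 *mbnl-1* was 2.27, 2.06 and 2.06 times *mbnl-like-1* in cRPKM (control RNAi first and second library, then wild type). In Xins it was 3.96, 4.86, 5.03 and 3.37 times (control RNAi, then wild type). Every X1 library held relatively more *mbnl-like-1* than every Xins library.

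As log2 of *mbnl-like-1* over *mbnl-1* the means were −1.08 ± 0.08 in X1 and −2.07 ± 0.27 in Xins (SD, n = 3 and 4), a difference of 0.99 (exact permutation test, two-sided, p = 0.0286, the smallest the 35 arrangements can give). Adjusted over the 5 such tests made it was 0.0714 (exact permutation test), which misses the threshold. X2, at −1.46 (control RNAi) and −1.07 (wild type), lay 0.81 above Xins (exact permutation test, p = 0.0667, the smallest possible there, adjusted 0.111) and 0.19 below X1 (difference −0.19, exact permutation test, p = 0.3, adjusted 0.3). With the *bruli* RNAi libraries added the X1 over Xins difference was 1.02 (exact permutation test, adjusted p = 0.0108), again with X1 and Xins apart.

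**Figure D2:**
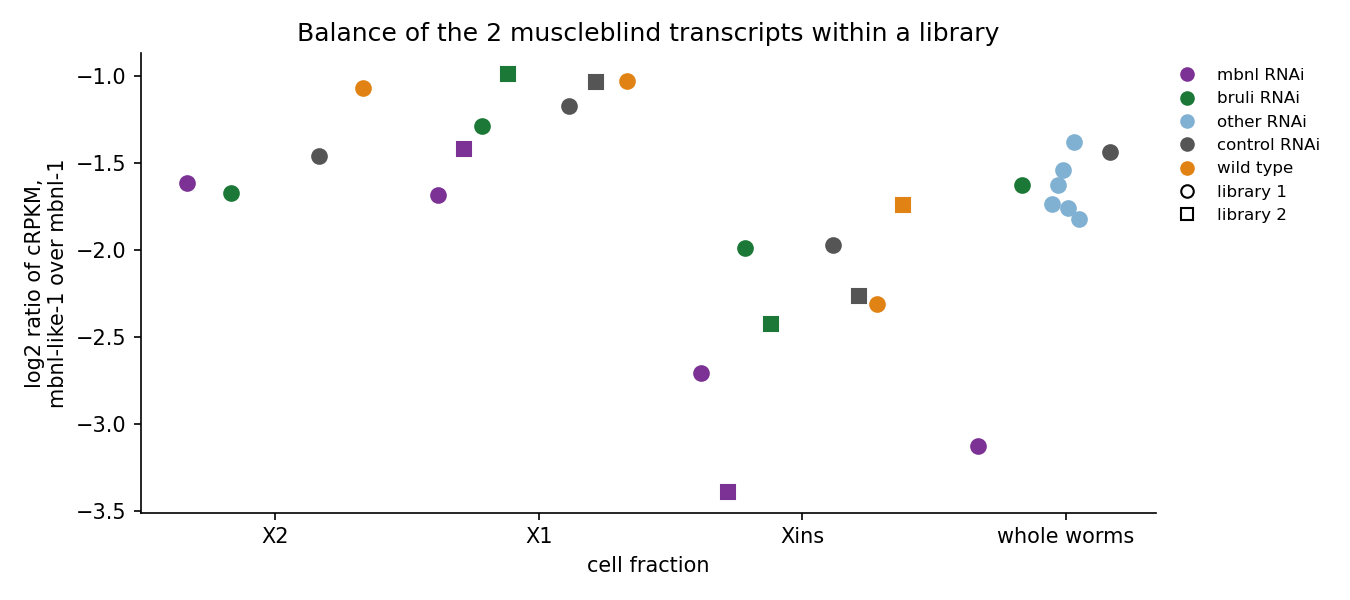
Log2 ratio of *mbnl-like-1* over *mbnl-1* in cRPKM (vertical axis) in each of the 28 libraries, by fraction and coloured by treatment, with circles and squares for libraries numbered 1 and 2 (green *bruli*, light blue other RNAi, orange wild type). Unperturbed X1 libraries sit at −1.17 to −1.03 and unperturbed Xins libraries at −2.31 to −1.74, and *mbnl* RNAi libraries (purple) are below control RNAi (grey) in every fraction.

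After *mbnl* RNAi both targets were lower in all 6 libraries than in any control RNAi library of the same fraction, and *mbnl-like-1* was lowered further than *mbnl-1* in each pair of like-numbered libraries. In X1, *mbnl-1* was at 51.9 and 41.5 CPM after *mbnl* RNAi, against 76.9 and 66.3 CPM after control RNAi. The transcript of *mbnl-like-1* was at 10.96 and 10.6 CPM after *mbnl* RNAi, against 23.5 and 22.3 CPM after control RNAi. By library number *mbnl-1* thus kept 67.6% and 62.6% of its control level and *mbnl-like-1* 46.6% and 47.4%.

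Knockdown in Xins left less of both. There *mbnl-1* was at 31.7 and 45.8 CPM after *mbnl* RNAi, against 95.6 and 81.9 CPM after control RNAi, which is 33.1% and 56.0% by library number. The transcript of *mbnl-like-1* was at 3.14 and 2.91 CPM after *mbnl* RNAi (50 and 138 counts), against 16.8 and 11.7 CPM after control RNAi (467 and 502 counts), or 18.7% and 24.8%. All 4 knockdown values lay below their controls, and the 2 knockdown libraries were closer to each other for *mbnl-like-1* than for *mbnl-1*.

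In X2, with 1 library per treatment and so no replicate check, *mbnl-1* had 576 counts after *mbnl* RNAi, against 3398 after control RNAi, a level of 18.9% of the control by summed counts (95% exact binomial counting interval 17.2% to 20.6%). In the same pair *mbnl-like-1* had 127 counts after *mbnl* RNAi, against 853 after control RNAi, which is 16.6% (13.6% to 20.0%). These intervals cover counting error only. On the cRPKM scale, log2((cRPKM + 1)/(control cRPKM + 1)) was −2.25 for *mbnl-1* and −2.16 for *mbnl-like-1*. Of the 10381 transcripts past the filter 16.4% differed by 0.7 or more in this pair of libraries, 13.6% downwards. The median over all of them was −0.19. The X2 wild type library stood at 81.5% of the control for *mbnl-1* (77.6% to 85.6%) and 107% for *mbnl-like-1* (97.9% to 118%). Between these 2 unperturbed libraries 36.3% of transcripts differed by 0.7 or more on the cRPKM scale. The median change over all transcripts past the filter was 0.45 there, so that scale was shifted as a whole.

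Whole worms differed from X2 in that *mbnl-1* was much less reduced. It had 773 counts after *mbnl* RNAi, against 1331 after control RNAi, or 59.6% (54.5% to 65.2%). The transcript of *mbnl-like-1* had 59 counts after *mbnl* RNAi, against 340 after control RNAi, or 17.8% (13.3% to 23.5%). The log2 cRPKM changes were −0.72 and −2.06 in that order of genes, where 1.6% of 12421 transcripts differed by 0.7 or more and 1.25% were lower by that much.

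**Figure D3:**
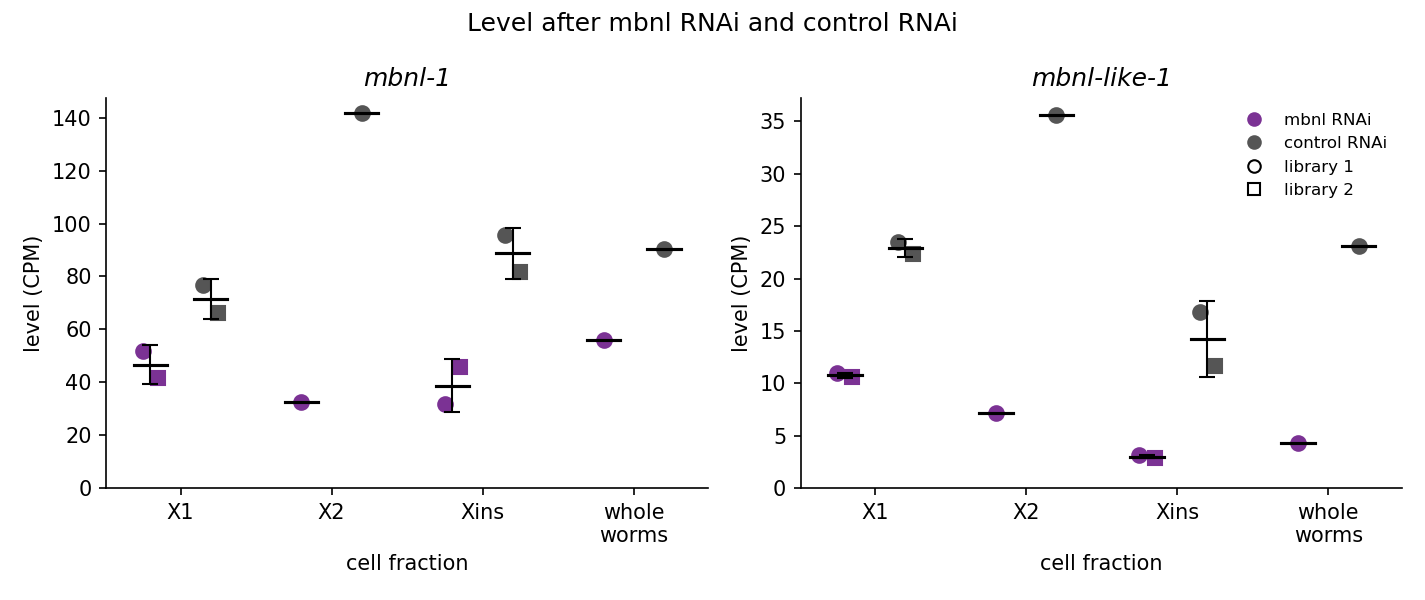
Level in CPM (vertical axis, from 0) of *mbnl-1* (left) and *mbnl-like-1* (right) after *mbnl* RNAi (purple) and control RNAi (grey) in X1, X2, Xins and whole worms. Circles and squares are libraries numbered 1 and 2, lines are means and bars SD where n = 2; every *mbnl* RNAi library lies below the controls of its fraction, and *mbnl-like-1* falls to 2.91 to 4.27 CPM in Xins and whole worms.

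Fitted over the 18 libraries of all fractions with *mbnl*, *bruli* or control RNAi, *mbnl-like-1* was the single transcript of 12297 called after *mbnl* RNAi (0.00813%). Its log2 difference was −1.89 (standard error 0.22, edgeR, adjusted p = 0.00227), with 6 of 6 *mbnl* RNAi libraries lower. By unadjusted p-value *mbnl-1* came next among all transcripts, at −1.04 (standard error 0.21, edgeR, unadjusted p = 0.000176), but with an adjusted p of 0.98 it was not called. Since both are targets of the dsRNA, this is a check of the labels, and the labels of all 6 libraries passed it. The *mbnl-like-1* call was lost without whole worms (−1.80, edgeR, adjusted p = 0.0539) and after quantile normalization (−1.40, limma, adjusted p = 0.13), and held with DESeq2 (adjusted p = 4.83e-12).

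Within single fractions no transcript was called. In X1 the log2 differences were −0.62 (standard error 0.27) for *mbnl-1* and −1.09 (0.33) for *mbnl-like-1*, both at an adjusted p of 1 (edgeR). In Xins they were −1.17 (0.27) and −2.22 (0.35), also at an adjusted p of 1.00 (edgeR), although *mbnl-like-1* had the smallest unadjusted p of all 12494 transcripts there. At an unadjusted p under 0.05 edgeR counted 212 transcripts in X1 and 202 in Xins against 0% called, DESeq2 called 1 in X1 and 2 in Xins, and limma called 0 in both. For *mbnl-like-1* in Xins DESeq2 gave a log2 difference of −2.23 and an adjusted p of 7.99e-05.

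Whether knockdown was deeper in Xins than in X1 was tested directly as the difference of the effects. For *mbnl-1* it was −0.55 (standard error 0.38, edgeR, unadjusted p = 0.18) and for *mbnl-like-1* −1.13 (0.47, edgeR, unadjusted p = 0.0392), and neither passed adjustment over 12494 transcripts, of which edgeR and DESeq2 each called 0 and edgeR counted 107 at an unadjusted p under 0.05. For *mbnl-1* the difference was −0.32 without the first Xins *mbnl* RNAi library and −0.92 without the second, so the deeper loss in Xins is a description of these libraries.

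The balance between the members shifted with knockdown as well. The log2 ratio of *mbnl-like-1* over *mbnl-1* was −1.69 and −1.42 in X1, −1.61 in X2, −2.71 and −3.39 in Xins and −3.13 in whole worms after *mbnl* RNAi, against −1.17 and −1.04 in X1, −1.46 in X2, −1.97 and −2.27 in Xins and −1.44 in whole worms after control RNAi. It was lower in each like-numbered pair, by 0.77 over fractions (difference −0.77, exact permutation test within fractions, two-sided, p = 0.0139, the smallest the 144 arrangements can give, adjusted 0.0694). In X2 both transcripts were reduced to a similar share and the ratio moved least.

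The scarce *mbnl-like-3*, itself a target of the mix, had 16 counts after *mbnl* RNAi, against 19 after control RNAi, in whole worms, and 19 against 25 in X2. In Xins it had 6 and 27 counts after *mbnl* RNAi, against 27 and 54 after control RNAi, or 0.38 and 0.57 CPM against 0.97 and 1.26 CPM. Both Xins knockdown libraries lay below both controls, while in whole worms the level was 86.5% of the control with a counting interval of 41.6% to 177%, above the 17.8% of *mbnl-like-1*. Of the 13 other RNAi targets tested in the fit over fractions 0 were called after *mbnl* RNAi (median log2 difference 0.04, against 0.01 for all transcripts). Among them *bruli* was at −0.22 (standard error 0.23) and *celf-2* at 0.46 (0.26).

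After knockdown of *bruli*, the neoblast CELF factor, no difference of either muscleblind transcript was called in any fraction tested. In X1, *mbnl-1* was at 116 and 96.9 CPM after *bruli* RNAi, against 76.9 and 66.3 CPM after control RNAi. The transcript of *mbnl-like-1* was at 32.8 and 33.8 CPM after *bruli* RNAi, against 23.5 and 22.3 CPM after control RNAi. Both *bruli* RNAi libraries lay above both controls for each gene.

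The X1 log2 differences, 0.58 for *mbnl-1* (standard error 0.27, edgeR, adjusted p = 0.73) and 0.55 for *mbnl-like-1* (0.33, edgeR, adjusted p = 0.91), were nevertheless not called. No transcript was called in X1 by edgeR (0%), with 890 at an unadjusted p under 0.05, 109 called by DESeq2 and 3 by limma, and neither member was among the calls of either. In the same libraries *bruli* itself was at 132 and 176 CPM after *bruli* RNAi, against 1064 and 1312 CPM after control RNAi, and the 6 neoblast markers, *bruli* included, summed to 5856 to 6416 CPM after *bruli* RNAi, against 15183 to 15496 CPM after control RNAi. The 6 neural markers summed to 106 to 111 CPM after *bruli* RNAi and 71.9 to 86.9 CPM after control RNAi. Their log2 differences ranged from −0.33 for 1 *ELAVL4* transcript to 1.24 for *celf-2*, and edgeR called 0 of them. The 2 epithelial markers, *esrp-1* and *esrp-2*, overlapped in sum, at 35.6 to 44.4 CPM after *bruli* RNAi and 26.1 to 36.8 CPM after control RNAi. The part of these shifts in the levels of the muscleblind transcripts was not tested.

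In Xins *mbnl-1* was at 85.8 and 70.0 CPM after *bruli* RNAi, against 95.6 and 81.9 CPM after control RNAi. The transcript of *mbnl-like-1* was at 14.9 and 8.93 CPM after *bruli* RNAi, against 16.8 and 11.7 CPM after control RNAi. The groups overlapped for both, although each *bruli* RNAi library lay below its like-numbered control, at 89.8% and 85.5% for *mbnl-1* and 88.5% and 76.3% for *mbnl-like-1*. The log2 differences of −0.19 (standard error 0.27) and −0.27 (0.33) were not called (edgeR, adjusted p of 1.00 for both). Here again edgeR called 0 transcripts (0%), with 79 at an unadjusted p under 0.05 and 7 called by DESeq2. The *bruli* RNAi effect in Xins minus that in X1 was −0.77 for *mbnl-1* (standard error 0.38, edgeR, unadjusted p = 0.0730) and −0.82 for *mbnl-like-1* (0.47, unadjusted p = 0.11), and neither passed.

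In X2, with 1 library each, *mbnl-1* had 4215 counts after *bruli* RNAi, against 3398 after control RNAi, or 142% of the control (95% counting interval 135% to 148%). For *mbnl-like-1* the counts were 915 after *bruli* RNAi, against 853 after control RNAi, or 123% (112% to 135%). Their log2 cRPKM changes, 0.54 and 0.32, did not reach 0.7, which 9.26% of 10781 transcripts did in this pair, 4.05% upwards. Set against the wild type X2 library, the result for *mbnl-like-1* depended on the unit. By CPM it was higher, at 44.7 CPM after *bruli* RNAi and 33.0 CPM in wild type. By cRPKM it was not, at 17.4 cRPKM after *bruli* RNAi and 17.7 cRPKM in wild type.

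**Figure D4:**
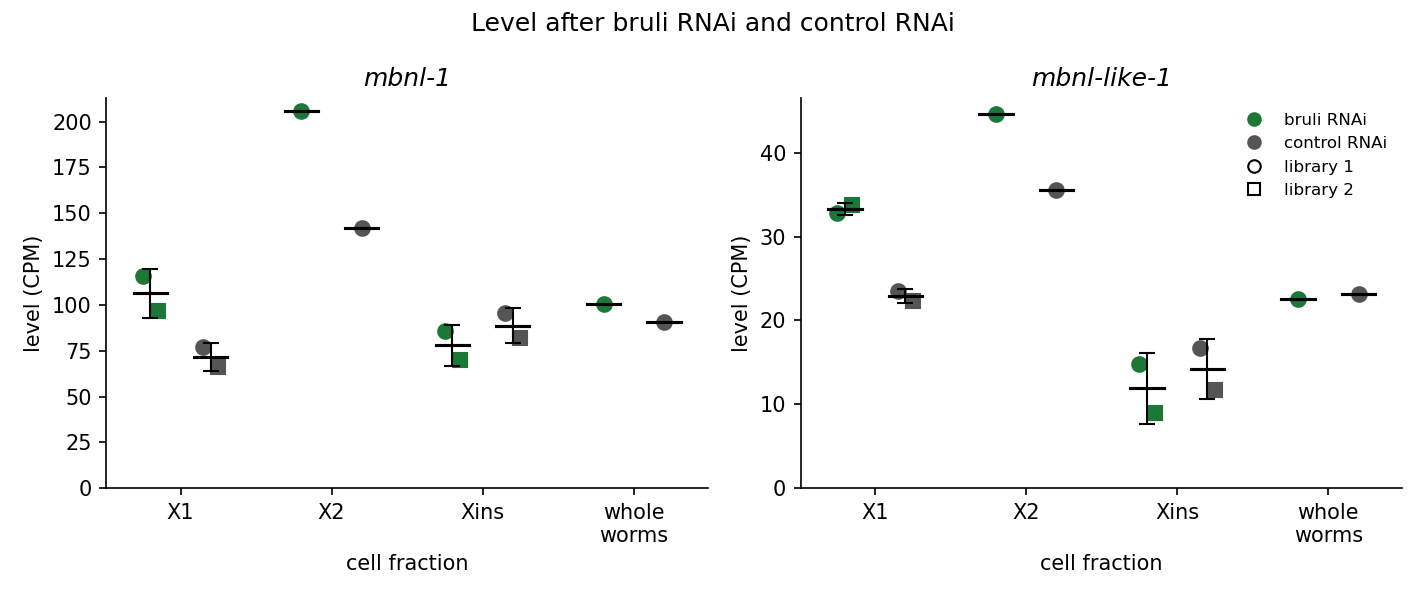
Level in CPM (vertical axis, from 0) of *mbnl-1* (left) and *mbnl-like-1* (right) after *bruli* RNAi (green) and control RNAi (grey) in X1, X2, Xins and whole worms. Circles and squares are libraries numbered 1 and 2, lines are means and bars SD where n = 2; in X1 both *bruli* RNAi libraries lie above both controls (96.9 to 116 against 66.3 to 76.9 CPM for *mbnl-1*), and in Xins the groups overlap.

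Over all fractions the *bruli* RNAi differences were 0.25 for *mbnl-1* (standard error 0.21, edgeR, adjusted p = 0.89) and 0.12 for *mbnl-like-1* (0.21, adjusted p = 0.97). In that fit 3 of 12297 transcripts were called (0.0244%), among them *bruli* at −2.58 (edgeR, adjusted p = 0.000144). The ratio of the members did not move detectably with *bruli* RNAi (difference −0.11, exact permutation test within fractions, p = 0.29, adjusted 0.3).

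In whole worms the remaining RNAi left both members near their control levels. Across the 7 RNAi other than *mbnl*, *mbnl-1* was at 101% to 122% of the control (median 112%), with 1607 counts (122%, interval 113% to 131%) after *bruli* RNAi and 1255 counts (101%, 93.7% to 110%) after *nova* RNAi at the ends. That order depended on the scaling, since by CPM *mbnl-1* was highest after RNAi of the other *rbfox* genes (106.2 CPM) and lowest after *rbfox1* RNAi (96.3 CPM), with 100.6 CPM after *bruli* RNAi and 97.5 CPM after *nova* RNAi. The range for *mbnl-like-1* was 87.4% to 111% (median 97.9%), lowest after *ptbp* RNAi (333 counts, 87.4%, 74.9% to 102%) and highest after *rbfox1* RNAi (439 counts, 111%, 96.4% to 129%). The 7 share 1 control library, so that the values of *mbnl-1* at or above 100% all rest on its 1331 counts.

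No value of either member reached 0.7 on the log2 cRPKM scale in these 7 RNAi (−0.18 to 0.28), where 0.801% (*rbfox1*), 1.18% (*esrp*), 1.24% (*ptbp*), 3.06% (other *rbfox*), 3.15% (*celf*), 3.24% (*nova*) and 6.33% (*bruli*) of transcripts did. After *celf* RNAi, aimed at the relatives of *bruli*, *mbnl-1* was at 121% (113% to 130%) and *mbnl-like-1* at 97.9% (84.4% to 114%), while the target *celf-2* had 44 counts, against 178 in the control. With *mbnl* RNAi left aside the 8 whole worm libraries varied little, at 98.7 ± 4.92 CPM for *mbnl-1* and 22.3 ± 1.77 CPM for *mbnl-like-1* (SD, n = 8).

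**Figure D5:**
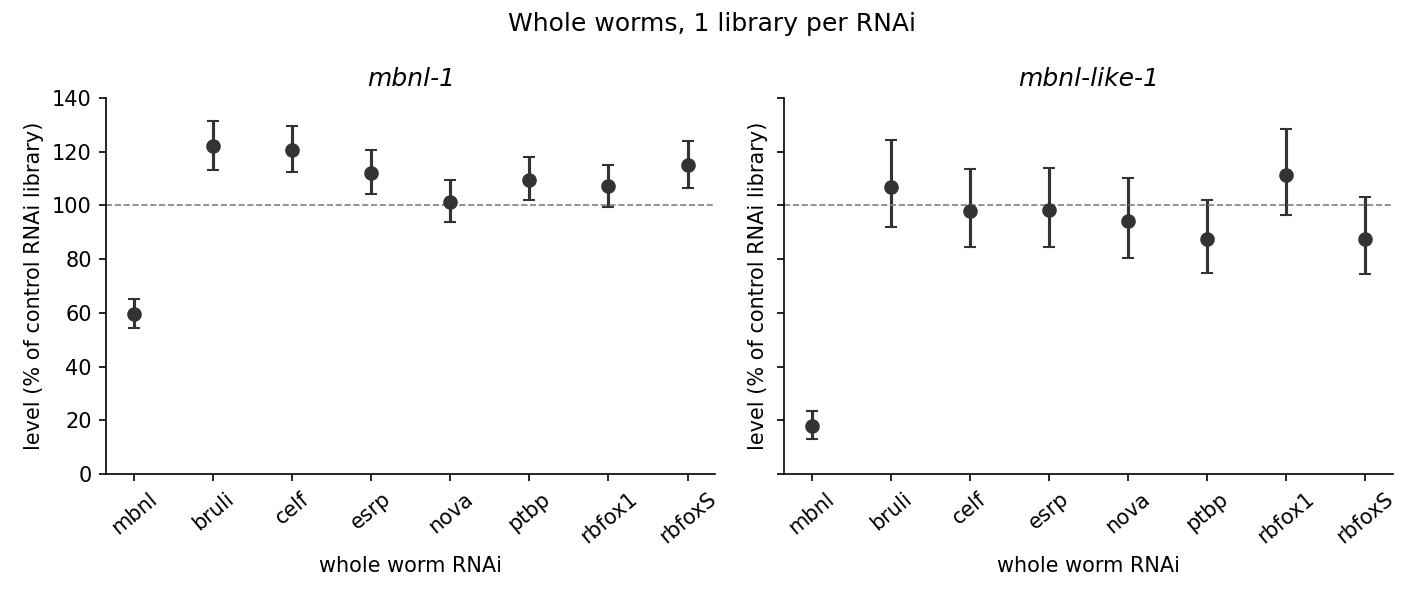
Level of *mbnl-1* (left) and *mbnl-like-1* (right) in whole worms after each of 8 RNAi, as percent of the control RNAi library by summed counts (vertical axis, from 0), with 95% counting intervals and a dashed line at 100%. Each point is 1 library; *mbnl* RNAi stands at 59.6% and 17.8%, and all other points lie between 87.4% and 122%.

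Control RNAi could be compared with wild type in Xins, where 2 control RNAi and 2 wild type libraries exist. The labels do not say how the wild type animals were handled, so the comparison does not isolate the injection. The log2 difference of control RNAi over wild type was −0.09 for *mbnl-1* (standard error 0.28, edgeR, adjusted p of 1.00) and −0.24 for *mbnl-like-1* (0.40, likewise), and 0% of 12744 transcripts were called, with 136 at an unadjusted p under 0.05 and 1 called by DESeq2. For both genes the wild type libraries differed more from each other, 80.9 and 112 CPM for *mbnl-1* and 11.2 and 23.2 CPM for *mbnl-like-1*, than the control RNAi libraries did. Without the second wild type library the sign turned for both, to 0.20 for *mbnl-1* and 0.41 for *mbnl-like-1*.

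Over the 22 libraries without *mbnl* RNAi, the pattern most like that of *mbnl-1* among 267 named RNA-binding proteins and RNAi targets was that of *mbnl-like-1*, with a Pearson r of 0.66 on log2(CPM + 1). After it came *HDLBP*, a KH-domain protein known as vigilin (0.54), *RBM24* (0.53), the DEAD-box helicase *DDX41* (0.52) and the splicing helicase *DHX15* (0.52), named by their best human hits. For *mbnl-like-1* the leading names were the hnRNP gene *HNRNPA2B1* (0.87), *MEX3D* (0.80), the helicase *DDX21* (0.80), the poly(A)-binding protein *PABPC1* (0.78) and *AGO2* (0.78), while *mbnl-1* ranked 42nd. The libraries share fractions, controls and depth, and r is a description of these points only. Among the 9 unperturbed sorted libraries r between the members was 0.45. There *mbnl-like-1* was at rank 25 of 266 for *mbnl-1*, and *mbnl-1* at rank 197 of 266 for *mbnl-like-1*.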

How the data were processed

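RNA of sorted cells and whole worms was made into TruSeq libraries. According to the study the authors mapped reads with Bowtie to a de novo transcriptome and deposited, per transcript, a raw count and a cRPKM (RPKM corrected for mappable positions). No version is named for them in the sources used here. The deposited counts held 48924 blank cells, read as 0. In 9 sorted RNAi libraries numbered 1 the cRPKM imply totals 1.16 to 1.30 times the summed counts, against 1.00 in 19 others, and these libraries were also shallower (15811388 to 25719013 counts, against 26112135 to 34950244 in sorted RNAi libraries numbered 2).

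Raw counts being at hand, edgeR 4.0.16 was used (R 4.3.3), with TMM scaling and transcripts of mean log2(cRPKM + 1) over 1.5. Unperturbed sorted libraries (9), X1 and Xins RNAi libraries (12), these with Xins wild type (14) and all RNAi libraries of 3 treatments (18, fraction as a term) were fitted separately. Alternatives used DESeq2 1.42.0, limma 3.58.1, other scalings, no filter, a replicate block and libraries left out. The scripts were tested on simulated data. Within-library ratios used a pseudocount of 0.1. Named genes are the members, *mbnl-like-3*, *bruli*, *celf-2*, counts of other RNAi targets, and the 5 named transcripts of highest r per member. Members and lists were chosen with earlier results of these data known. *mbnl-like-2* was not analysed here.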

Additional observations from a re-analysis of the deposited data

Results flagged for a closer look

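After *bruli* RNAi *mbnl-1* was above the mean of the control RNAi libraries in both X1 libraries and below it in both Xins libraries. The effect in Xins minus that in X1 was −0.77 on the log2 scale (standard error 0.38). The test of that difference did not pass (edgeR's quasi-likelihood test, unadjusted p = 0.0730, adjusted p of 1.00), and it ranged from −0.89 to −0.64 with 1 library left out at a time. For *mbnl-like-1* the difference was −0.82, and −0.52 without the first Xins control library or the second Xins *bruli* RNAi library, but 1 of the 2 Xins *bruli* RNAi libraries (14.9 CPM) lay above the control mean (14.2 CPM). Any part of the lower neoblast marker levels in X1 after *bruli* RNAi in these differences was not tested. By the paper's account neoblast numbers had not yet fallen at that time.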

How the results depend on the processing

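Of 421 alternative values for 45 results, 396 kept their direction and their side of the threshold. X1 minus Xins for *mbnl-like-1* was −0.058 with limma on cRPKM at a pseudocount of 1, −0.061 at 0.1, and 0.97 (called) after quantile normalization. Each of these fits included the second Xins wild type library, at 13.41 cRPKM. With TMM factors over all 28 libraries, chosen after seeing the data, X1 minus Xins for *mbnl-1* was −0.41 and not called. After *mbnl* RNAi, *mbnl-like-1* was called in Xins by DESeq2 (−2.23), and over fractions it was not called after quantile normalization (−1.40) or without whole worms (−1.80, also chosen after seeing the data). The X1 against Xins ratio passed with *bruli* RNAi libraries added (1.02). TMM scaling gave 112% for *mbnl-1* in whole worms after *bruli* RNAi and 21.9% in X2 after *mbnl* RNAi. The cause of these changes was not tested.

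Leaving out 1 library at a time, X1 minus Xins ranged from −0.79 to −0.53 for *mbnl-1* and 0.081 to 0.48 for *mbnl-like-1*, X2 minus X1 for *mbnl-1* from 0.55 to 1.11, X2 minus Xins from −0.072 to 0.57 for *mbnl-1* and 0.74 to 1.13 for *mbnl-like-1*. The *bruli* RNAi difference in Xins for *mbnl-like-1* ranged from −0.64 to 0.036, and control RNAi minus wild type from −0.31 to 0.20 (*mbnl-1*) and −0.68 to 0.41 (*mbnl-like-1*). The *mbnl* RNAi effect in Xins minus that in X1 ranged from −0.92 to −0.32 for *mbnl-1*, and the same difference for *bruli* RNAi from −1.19 to −0.52 for *mbnl-like-1*. The X2 against X1 ratio ranged from −0.38 to 0.012. With 1 library left in an arm, its spread was assumed to be that of the other groups.

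Like-numbered libraries deviated together with r of 0.02 to 0.69 over 15 pairs (median 0.46, 14 over 0.1). The libraries numbered 1 also share a lower depth, but the labels do not tie a number to a batch and 1 pair fell under 0.1, so fits without the block were kept and a batch by number was not settled. With the replicate number as a block, X2 minus Xins for *mbnl-like-1* was 1.09 and not called, in control RNAi libraries alone, and the *mbnl* RNAi difference over fractions was −1.88 for *mbnl-like-1* (edgeR, adjusted p = 0.00155). With the block and without wild type libraries, calls over all transcripts were 2828, against 5913, in X2 minus X1 and 4464, against 7977, in X2 minus Xins, where the block and the smaller number of libraries cannot be told apart. The block alone changed them to 128, against 0, for *bruli* RNAi in X1 and to 6, against 3, for *bruli* RNAi over fractions, where DESeq2 called 37. Whole worms and X2 have 1 library per treatment, so counting error is the only error known there, and counts per transcript do not show where in it reads lie.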
